A study of Mus musculus with 8 samples.

Results

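The interleukin-1 family was followed through 10 genes of the mouse liver: the agonist ligands Il1a, Il1b, Il1f9 (interleukin-36 gamma), Il33 and Il18, the receptor antagonist Il1rn, the decoy receptor Il1r2, and the signalling receptor chains Il1r1, Il1rap and Il18rap. They were chosen by gene name from the 54532 genes in the deposited table, and all 10 were found there. Earlier results of these data were known when they were chosen. Livers were compared between 4 METTL3-HKD mice and 4 METTL3-Flox mice, the question being which transcripts depend on hepatocyte METTL3, an RNA N6-methyladenosine methyltransferase, after hepatic ischemia and reperfusion (I/R). METTL3-HKD mice carried METTL3 flox/- and the Alb-iCre transgene, whose albumin promoter drives Cre in hepatocytes, and were described by the study as heterozygotes with reduced METTL3. METTL3-Flox mice (METTL3 flox/flox) were from the same litters, and no Cre is named for them. Effects of Cre, of the allele written as - and of less METTL3 in hepatocytes therefore cannot be told apart here. The floxed allele had loxP sites on either side of exon 4. Every mouse of both groups went through 1 h of ischemia and then 6 h of reperfusion, so these libraries hold no sham-operated liver. The age of the sequenced mice was not given in the sources used here.

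Interleukin-1 alpha and beta bind the receptor chain encoded by Il1r1, which then recruits the accessory protein encoded by Il1rap and signals through MyD88 and NF-kB. The antagonist encoded by Il1rn occupies the same receptor without recruiting the accessory protein, and the chain encoded by Il1r2 binds ligand but has no signalling domain. Interleukin-1 beta and interleukin-18 are made as precursors that caspase-1 cleaves within inflammasomes, whereas interleukin-1 alpha and interleukin-33 are active alarmins that dying cells release. In the injured liver these cytokines are known as signals that draw in neutrophils, and macrophages, neutrophils, hepatocytes and stellate cells are among their known sources.

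The agonists and antagonist lie in gene clusters of the GRCm38 genome. Il1a (chr2:129299610-129309972) and Il1b (chr2:129364570-129371139) are both on the minus strand, 54.6 kb apart, with no protein-coding gene between them. On the same chromosome, Il1f9 (chr2:24186476-24193568) and Il1rn (chr2:24336853-24351494) bound a stretch of 165 kb on the plus strand that also holds Il1f6, Il1f5 and Il1f10. The receptor genes Il1r2 (chr1:40074079-40125231), Il1r1 (chr1:40225080-40317257) and Il18rap (chr1:40515362-40551705) belong to a cluster of 478 kb on the plus strand of chromosome 1. Il1rap (chr16:26581704-26730117), Il18 (chr9:50554827-50581840) and Il33 (chr19:29925114-29960718) stand elsewhere.

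The 250 bases before the transcription start are shown for the neighbouring agonists Il1a and Il1b, of which Il1b rose in METTL3-HKD livers and Il1a was not called, and for the antagonist Il1rn, at the first of its 3 annotated starts. They were taken from RefSeq on GRCm38.p6, at chr2:129309973-129310222 (minus strand), chr2:129371140-129371389 (minus strand) and chr2:24336610-24336859 (plus strand), and run 5′ to 3′. Capitals mark matches to a TATA motif (TATAAA), an AP-1 motif (TGANTCA), a C/EBP motif (TTGCNNAA) and an NF-kB motif, all searched on both strands.
Il1a: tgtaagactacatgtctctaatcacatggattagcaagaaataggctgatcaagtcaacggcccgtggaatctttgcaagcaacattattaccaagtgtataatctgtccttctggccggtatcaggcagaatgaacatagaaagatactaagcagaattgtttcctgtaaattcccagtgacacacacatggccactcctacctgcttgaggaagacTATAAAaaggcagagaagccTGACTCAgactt
Il1b: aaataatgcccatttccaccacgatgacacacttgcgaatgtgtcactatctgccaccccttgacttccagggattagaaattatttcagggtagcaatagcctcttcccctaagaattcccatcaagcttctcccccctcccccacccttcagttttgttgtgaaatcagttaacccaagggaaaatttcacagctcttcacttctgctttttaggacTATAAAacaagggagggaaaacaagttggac
Il1rn: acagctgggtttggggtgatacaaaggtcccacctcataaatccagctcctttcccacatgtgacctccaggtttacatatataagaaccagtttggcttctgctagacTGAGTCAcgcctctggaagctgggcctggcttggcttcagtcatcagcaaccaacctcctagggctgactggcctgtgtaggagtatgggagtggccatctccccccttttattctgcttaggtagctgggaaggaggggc
The TATA letters stood 32 bases before the start of Il1a and 31 bases before that of Il1b. The AP-1 letters stood 12 bases before the start of Il1a and 141 bases before that of Il1rn, and none of the other matches fell in these 3 stretches. Over windows from 250 bases before to 50 bases after each start, 14 windows covered the 10 members. TATAAA was found in 5 members (Il1a, Il1b, Il1rn, Il18 and Il33) against 13.6% of all 32851 windows, TGANTCA in 2 (Il1a and Il1rn) against 7.81%, TTGCNNAA in 2 (Il1r1 and Il33) against 10.8%, and the NF-kB motif in 1 (Il1r1) against 4.51%. Members with several starts had several windows, and these matches describe letters and not bound sites.

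Levels are given as FPKM (fragments per kilobase of exon, divided by a library size), as the authors deposited them. Reads on genes lay between 15961479 and 18434488 in METTL3-HKD livers and between 15861245 and 17262991 in METTL3-Flox livers. Differences were tested with limma on log2(FPKM + 0.1), two-sided, with Benjamini-Hochberg adjustment over the 16645 genes that reached a mean of 0.1 FPKM. A gene was called where the adjusted p was under 0.05 and the log2 fold change reached 1, up or down. Mettl3 over its whole gene length was at 1.17 to 1.56 FPKM in METTL3-HKD livers and at 1.16 to 1.84 FPKM in METTL3-Flox livers, which overlap, with a log2 fold change of −0.16 (limma, adjusted p = 0.556). It shares 933 exon bases with Tox4 on the opposite strand, so it did not check the labels at this level. Albumin stood at a mean of 18252 FPKM in METTL3-HKD and 18426 FPKM in METTL3-Flox livers, as liver labels require.

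All 10 members reached the minimum level, 6 of them were called higher in METTL3-HKD livers and 0 were called lower. The 6 were the agonists Il1b, Il1f9 and Il33, the antagonist Il1rn, the decoy receptor Il1r2 and the receptor chain Il18rap. Among all tested genes, 4.7% were called higher and 1.52% were called lower. Because the members were chosen with earlier results of these data known, these shares describe the background and test no enrichment. With the adjusted p at any fold the count of members stayed at 6 higher and 0 lower, where 9.05% of all tested genes were higher and 6.63% lower. In the same 6 members every METTL3-HKD liver was above every METTL3-Flox liver, as in 12.7% of tested genes, and in 0 members every one was below, as in 9.95%. At an unadjusted p under 0.05, limma gave 6 members higher and 2 lower (Il1rap and Il18), where 16.7% of all tested genes were higher and 15.1% lower, and voom on the rebuilt reads also called 6 higher and 0 lower. The median log2 fold change of the 10 members was 2.35, against −0.0028 over all tested genes, and it was 1.26 with a pseudocount of 1 FPKM. Il18rap had a mean under 0.1 FPKM in METTL3-Flox livers and so passed the minimum through METTL3-HKD livers, which means that it had to differ. Of the other 9 members, 5 were called higher. Among all 15815 tested genes whose METTL3-Flox mean reached 0.1 FPKM, 569 were called higher. In whole-liver RNA, fewer cells of a type and less RNA per cell cannot be told apart.

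**Figure D1:**
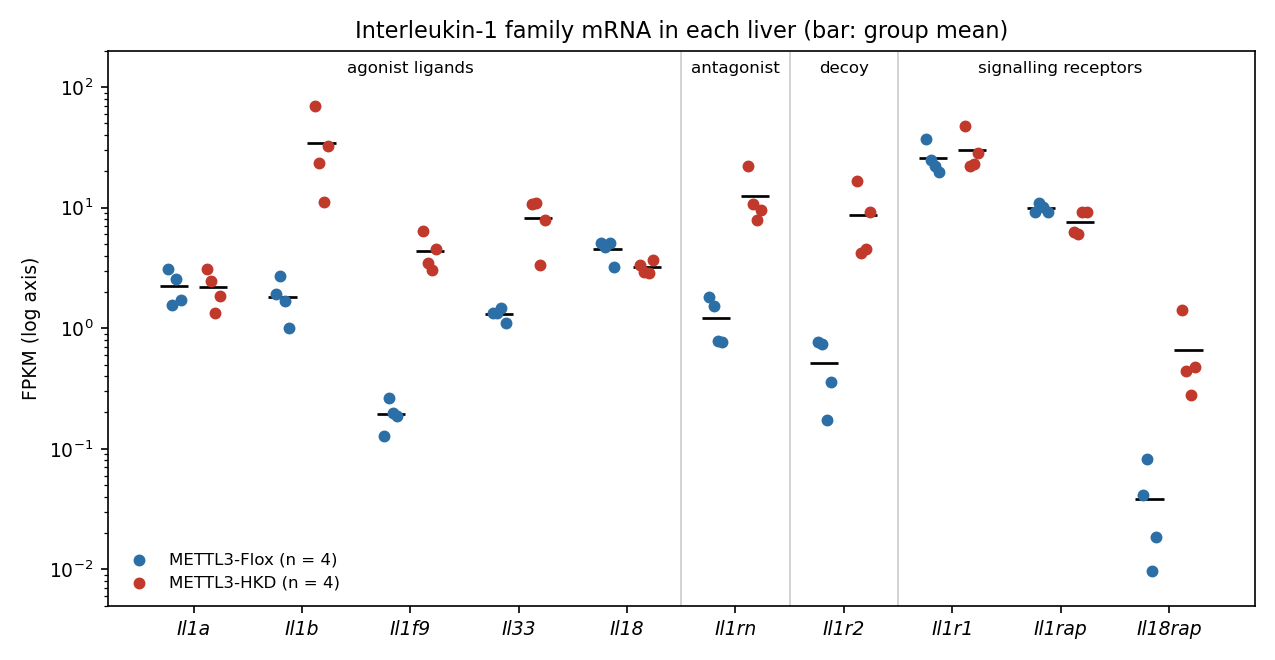
FPKM of the 10 members in each liver, on a log axis, with METTL3-Flox livers in blue and METTL3-HKD livers in red, 4 in each group, and a bar at the group mean. Red points of Il1b, Il1f9, Il33, Il1rn, Il1r2 and Il18rap all lie above the blue points, whereas the colours overlap for Il1a, Il18, Il1r1 and Il1rap.

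Of the agonists, Il1b, Il1f9 and Il33 rose in METTL3-HKD livers, by 6.26 to 22.4 times in the group means, whereas Il1a and Il18 were not called. Il1b, the inflammasome substrate of myeloid cells, was at 69.7, 23.2, 11.2 and 32.4 FPKM in the METTL3-HKD livers, in the order of their replicate numbers 1 to 4 as throughout, and at 1.92, 2.69, 1.69 and 1.01 FPKM in the METTL3-Flox livers. The lowest METTL3-HKD liver was above the highest METTL3-Flox liver, and METTL3-HKD liver 1 stood highest of all. The means were 34.1 ± 25.3 and 1.83 ± 0.694 FPKM (SD, n = 4 each), an 18.7-fold difference. On the log2 scale the change was 3.93 (SE 0.504, limma, adjusted p = 0.00381), and without METTL3-HKD liver 1 it was 3.48 (limma, adjusted p = 0.00811).
Il1a, the alarmin beside it in the genome, was at 3.12, 2.47, 1.35 and 1.85 FPKM in METTL3-HKD livers and at 3.10, 1.57, 2.57 and 1.70 FPKM in METTL3-Flox livers. The groups covered nearly the same range. Its log2 fold change was −0.033 with a 95% interval from −0.69 to 0.62 (limma, adjusted p = 0.955). A change of either sign within that interval is therefore not excluded. The sign turned when libraries were scaled to their reads on genes (0.18). Of the exon bases of Il1a, 222 are shared with Gm14023 on the opposite strand, which averaged 0.314 FPKM.

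Il1f9, an interleukin-36 agonist best known from epithelia, was at 6.43, 3.48, 3.06 and 4.51 FPKM in METTL3-HKD livers and at 0.128, 0.263, 0.200 and 0.188 FPKM in METTL3-Flox livers. The METTL3-Flox values rest on only 3 to 7 reads in each liver. All METTL3-HKD livers were above them, and the 4 METTL3-HKD livers kept within 3.06 to 6.43 FPKM. The means of 4.37 ± 1.5 and 0.195 ± 0.0552 FPKM (SD, n = 4 each) differ 22.4-fold, and the log2 change of 3.88 had the smallest standard error of the 6 called members (SE 0.248, limma, adjusted p = 0.000315). With a pseudocount of 1 FPKM it was 2.13 (limma, adjusted p = 0.00149). Il33, the nuclear alarmin of barrier, endothelial and stellate cells, was at 10.6, 10.8, 3.34 and 7.90 FPKM in METTL3-HKD livers and at 1.34, 1.33, 1.46 and 1.10 FPKM in METTL3-Flox livers. The METTL3-Flox livers lay close together and METTL3-HKD liver 3 came nearest to them. Its means of 8.18 ± 3.5 and 1.31 ± 0.151 FPKM (SD, n = 4 each) differ 6.26-fold, with a log2 change of 2.43 (SE 0.337, limma, adjusted p = 0.00460).
Il18, the other caspase-1 substrate, was not called. It was at 3.38, 2.94, 2.85 and 3.65 FPKM in METTL3-HKD livers and at 5.12, 4.74, 5.10 and 3.19 FPKM in METTL3-Flox livers. The groups overlapped through METTL3-Flox liver 4. The log2 fold change of −0.47 (95% interval −0.85 to −0.10, limma, adjusted p = 0.0846) did not pass, and without METTL3-Flox liver 4 it was −0.63 (limma, adjusted p = 0.0287).

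Il1rn, whose product blocks the interleukin-1 receptor, rose together with Il1b. It was at 22.1, 10.6, 7.92 and 9.60 FPKM in METTL3-HKD livers and at 1.82, 1.52, 0.784 and 0.774 FPKM in METTL3-Flox livers. The groups were well apart, and liver 1 was highest in each of them. The means of 12.6 ± 6.44 and 1.22 ± 0.528 FPKM (SD, n = 4 each) differ 10.3-fold, with a log2 change of 3.23 (SE 0.364, limma, adjusted p = 0.00272). Il1f9, at the other end of the same stretch of chromosome 2, also rose, while the genes between them were nearly silent. Il1f5 and Il1f10 were listed at 0 in every liver and Il1f6 reached at most 0.0613 FPKM.

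Among the receptors, the decoy Il1r2 rose and the signalling chains Il1r1 and Il1rap were not called. Il1r2, which neutrophils and macrophages shed as a ligand trap, was at 16.7, 4.17, 4.5 and 9.14 FPKM in METTL3-HKD livers and at 0.774, 0.746, 0.172 and 0.358 FPKM in METTL3-Flox livers. Every METTL3-HKD liver was above every METTL3-Flox liver. The means of 8.63 ± 5.84 and 0.513 ± 0.296 FPKM (SD, n = 4 each) differ 16.8-fold, with a log2 change of 3.75 (SE 0.510, limma, adjusted p = 0.00434).
Il1r1, which starts 99.8 kb after the end of Il1r2, was at 48.0, 22.1, 23.0 and 28.4 FPKM in METTL3-HKD livers and at 37.0, 24.8, 22.2 and 19.7 FPKM in METTL3-Flox livers. Liver 1 was highest in both groups and the ranges overlapped. Its log2 fold change was 0.19 with a 95% interval from −0.42 to 0.81 (limma, adjusted p = 0.662), and without METTL3-HKD liver 1 it was −0.050. Il1rap, the accessory chain shared by the receptors for interleukin-1, interleukin-33 and interleukin-36, was at 6.30, 6.00, 9.15 and 9.23 FPKM in METTL3-HKD livers and at 9.26, 10.8, 10.1 and 9.17 FPKM in METTL3-Flox livers. METTL3-HKD livers 1 and 2 were the lowest, and METTL3-HKD liver 4 overlapped the METTL3-Flox range. The log2 fold change of −0.38 (95% interval −0.74 to −0.02, limma, adjusted p = 0.137) did not pass. Il1rap shares 552 exon bases with Gm20319 on the opposite strand, which averaged 14.8 FPKM, and without a known strand setting part of its level is uncertain.
Il18rap, the accessory chain of the interleukin-18 receptor, was at 1.43, 0.441, 0.279 and 0.478 FPKM in METTL3-HKD livers and at 0.0417, 0.0825, 0.00974 and 0.0184 FPKM in METTL3-Flox livers, where it rests on 1 to 9 reads a liver. The groups did not overlap, but this member stayed the lowest of the 10 in both. Its fitted log2 change of 2.27 (SE 0.432, limma, adjusted p = 0.0128) depends on the pseudocount at so low a level, and was 0.63 with a pseudocount of 1 FPKM and 4.01 with voom on the rebuilt reads.
By the exact permutation test of FPKM, two-sided over the 70 arrangements of 4 livers against 4, each of the 6 called members had p = 0.0286, which is the smallest this design can give. For Il1rap it was 0.0571, for Il18 0.0857, for Il1r1 0.571 and for Il1a 0.943 by the same exact test.

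**Figure D2:**
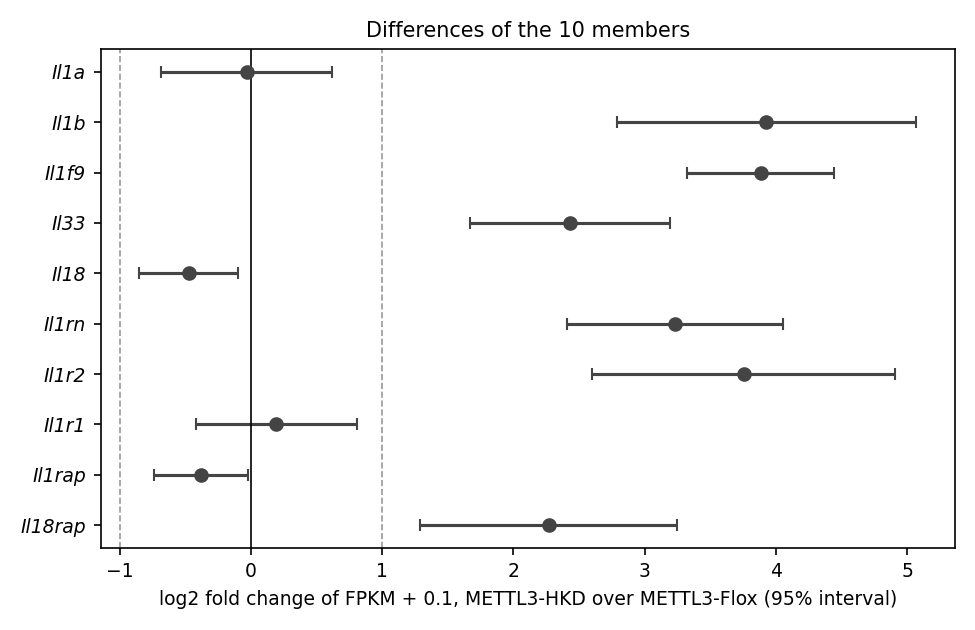
Log2 fold change of FPKM + 0.1, METTL3-HKD over METTL3-Flox, for each member, with points at the limma estimate and bars for its 95% interval. The intervals of Il1b, Il1f9, Il33, Il1rn, Il1r2 and Il18rap lie wholly above 1 (dashed line), that of Il1f9 being the narrowest of these 6, and those of Il1a and Il1r1 include 0.

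The order of mean levels within the family was not the same in both groups. In METTL3-Flox livers the signalling chains stood at the top, Il1r1 with a mean of 25.9 FPKM and Il1rap with 9.84 FPKM, followed by Il18 with 4.54 FPKM and Il1a with 2.23 FPKM. The ranges of these neighbours did not overlap. Il1b followed with 1.83 FPKM, then Il33 with 1.31, Il1rn with 1.22, Il1r2 with 0.513 and Il1f9 with 0.195 FPKM, and from Il1a to Il1f9 each range overlapped the next. Il18rap came last with 0.0381 FPKM, below the range of Il1f9.
In METTL3-HKD livers Il1b, with a mean of 34.1 FPKM, stood beside Il1r1 with 30.3 FPKM, and Il1rn, Il1r2 and Il33 followed at 12.6, 8.63 and 8.18 FPKM. Il1rap was at 7.67, Il1f9 at 4.37, Il18 at 3.20, Il1a at 2.20 and Il18rap at 0.657 FPKM. In this group the range of each member overlapped that of its neighbour in the order, so the order itself does not hold beyond the spread between livers. METTL3-HKD liver 1 held the highest METTL3-HKD value of 7 members and METTL3-HKD liver 3 the lowest of 7. With each liver left out in turn, 6 members were called higher every time.

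Within each liver, ratios of members were compared by the exact permutation test, two-sided, with Benjamini-Hochberg adjustment over 5 ratios. The ratio of antagonist to Il1b, Il1rn to Il1b, was 0.317, 0.460, 0.711 and 0.298 in METTL3-HKD livers and 0.950, 0.580, 0.494 and 0.788 in METTL3-Flox livers. Il1b was thus the higher of the pair by FPKM in all 8 livers, and the groups overlapped. The mean log2 ratio was −1.25 ± 0.578 against −0.56 ± 0.425 (SD, n = 4 each), a difference of −0.70 (exact p = 0.114, adjusted 0.143) that did not pass. Against Il1a the antagonist moved from lower to higher by FPKM. FPKM divides by all exon bases, 5535 for Il1rn with its 6 transcripts, 1974 for Il1a and 1907 for Il1b. Which gene of a pair stands higher therefore rests on those lengths. In METTL3-Flox livers Il1rn had 143, 136, 66 and 69 reads and Il1a 87, 50, 77 and 54. Over the METTL3-HKD livers 5323 reads fell on Il1rn and 5027 on Il1b. The ratio of Il1rn to Il1a was 6.88, 4.18, 5.55 and 4.97 in METTL3-HKD livers and 0.599, 0.972, 0.332 and 0.486 in METTL3-Flox livers, with a log2 difference of 3.26 (exact p = 0.0286, adjusted 0.0476).
The ratio of decoy to signalling receptor, Il1r2 to Il1r1, was 0.350, 0.193, 0.199 and 0.324 in METTL3-HKD livers and 0.0236, 0.0339, 0.0122 and 0.0232 in METTL3-Flox livers. Il1r1 stayed the higher chain by FPKM in all 8 livers, although the ratio was higher in every METTL3-HKD liver. Its log2 value was −1.96 ± 0.453 against −5.52 ± 0.612 (SD, n = 4 each), a difference of 3.56 (exact p = 0.0286, adjusted 0.0476), which was 2.31 with a pseudocount of 1 FPKM. The ratio of accessory chain to Il1r1, Il1rap to Il1r1, had a log2 difference of −0.57 (exact p = 0.200, adjusted 0.200), with groups that overlapped. Of the inflammasome substrates, Il1b to Il18 was 20.1, 7.68, 3.83 and 8.66 in METTL3-HKD livers and 0.387, 0.577, 0.344 and 0.337 in METTL3-Flox livers. By FPKM, Il18 was higher in every METTL3-Flox liver and Il1b in every METTL3-HKD liver, with a log2 difference of 4.4 (exact p = 0.0286, adjusted 0.0476). For these 3 ratios 0.0286 is the smallest p that the design allows. Each of the 3 sets a called member over one that was not called. Its log2 difference is the log2 change of the first less that of the second, so it is no separate evidence.

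**Figure D3:**
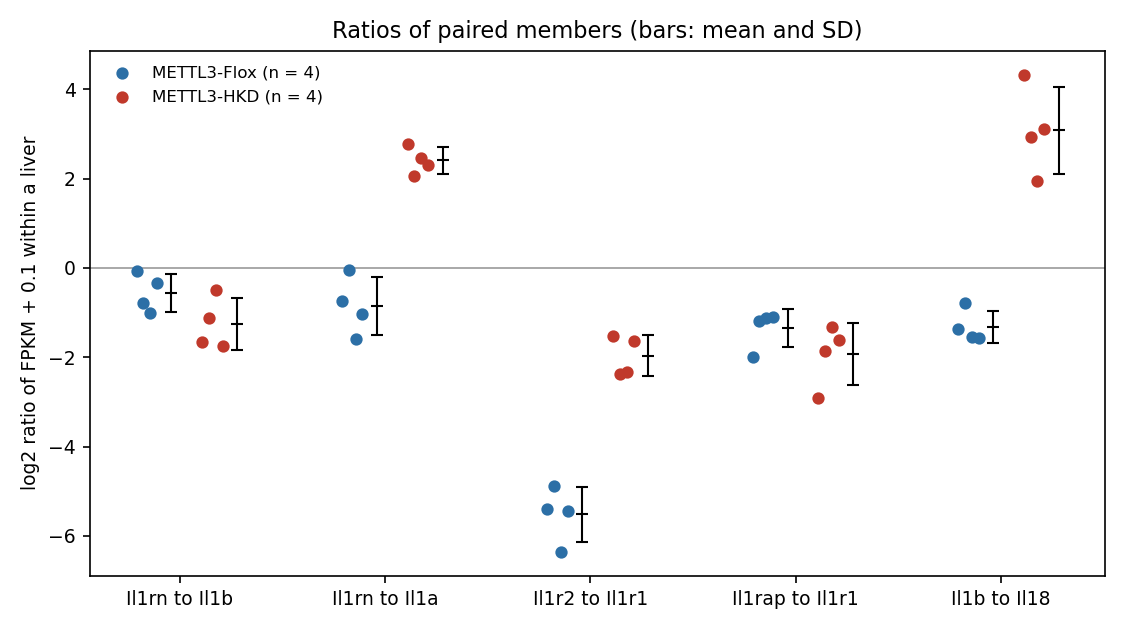
Log2 ratio of FPKM + 0.1 of paired members within each liver, METTL3-Flox in blue and METTL3-HKD in red (4 livers each), with bars for the mean and SD. The groups are apart for Il1rn to Il1a, Il1r2 to Il1r1 and Il1b to Il18, and they overlap for Il1rn to Il1b and Il1rap to Il1r1.

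The other ligands, receptors and soluble binders of the family number 11, of which 8 were under the minimum level and 5 were listed at 0 in every liver. Of the 3 tested, 0 were called higher and 1 was called lower, beside 4.7% and 1.52% of all tested genes. On the adjusted p at any fold 0 were higher and 2 lower, beside 9.05% and 6.63% of all tested genes. Il18bp, the secreted protein that neutralises interleukin-18, was at 6.29, 7.67, 5.12 and 6.06 FPKM in METTL3-HKD livers and at 17.9, 10.9, 17.1 and 12.3 FPKM in METTL3-Flox livers. All METTL3-HKD livers lay below, and the log2 change was −1.18 (SE 0.185, limma, adjusted p = 0.00707). With libraries scaled to their reads on genes it was −0.97 (limma, adjusted p = 0.0144), just short of the fold threshold.
Sigirr, an inhibitory member of the receptor family, had means of 5.52 and 8.56 FPKM and passed on the adjusted p alone, with a log2 change of −0.64 (limma, adjusted p = 0.0491). That call held under only 4 of its 16 alternatives. Il18r1, the ligand-binding partner of Il18rap, was low at means of 0.391 and 0.132 FPKM and did not pass, with a log2 change of 1.05 (limma, adjusted p = 0.0699). The median log2 fold change of the 3 tested genes was −0.64.

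Of 19 genes that mature or release these cytokines, 17 were tested, and their median log2 fold change was 0.10. Of these, 2 were called higher and 1 lower, beside 4.7% and 1.52% of all tested genes. Both higher genes encode inflammasome sensors of myeloid cells. Nlrp3 was at 4.85, 1.59, 1.34 and 2.65 FPKM in METTL3-HKD livers and at 0.312, 0.488, 0.616 and 0.337 FPKM in METTL3-Flox livers, with a log2 change of 2.19 (limma, adjusted p = 0.00973). Mefv, which encodes pyrin, had means of 1.70 and 0.324 FPKM and a log2 change of 2.02 (limma, adjusted p = 0.00532), which was 0.99 and so short of the fold threshold with a pseudocount of 1 FPKM. Prtn3, the neutrophil protease proteinase 3, was lower, at means of 3.24 and 14.7 FPKM with a log2 change of −2.03 (limma, adjusted p = 0.0160), and 2 of its 16 alternatives did not pass.
On the adjusted p alone, Capn2, a calpain, was higher by 0.40 (limma, adjusted p = 0.0402, held in 5 of 16 alternatives). Gsdmd, the pore former through which interleukin-1 beta leaves cells, was lower, at means of 12.5 and 20.6 FPKM with a log2 change of −0.71 (limma, adjusted p = 0.00626). Casp1, which encodes the cleaving enzyme, had a log2 change of −0.20 (limma, adjusted p = 0.605), and the adaptor Pycard 0.53 (limma, adjusted p = 0.322). Casp1 and Pycard were named after their values were seen.

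The 24 genes between the receptor and NF-kB were all tested, and 0 of them were called in either direction. Of all tested genes 4.7% were called higher and 1.52% lower, so in a list this short 0 is near those shares. At an unadjusted p under 0.05, limma gave 8 higher and 2 lower, beside 16.7% and 15.1% of all tested genes. Voom called 0 as well. Their median log2 fold change was 0.21. On the adjusted p alone 3 were higher and 1 lower, beside 9.05% and 6.63% of all tested genes. Nfkb1, which encodes the p105 precursor of an NF-kB subunit, had means of 4.02 and 2.46 FPKM (log2 change 0.67, limma, adjusted p = 0.0136). Map3k8, the kinase bound to p105, had a log2 change of 0.68 (limma, adjusted p = 0.0306), and Irak2, a receptor-associated kinase, of 0.48 (limma, adjusted p = 0.0479). Peli3, a ubiquitin ligase of the pathway, was lower by 0.72 on the log2 scale (limma, adjusted p = 0.0429). Of these 4, the call of Nfkb1 held under all 16 alternatives and those of Map3k8 and Irak2 under 8 and 6 of 16. That of Peli3 held under 6 of the 15 alternatives that tested it.

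Of 28 genes known to respond to interleukin-1 or NF-kB, 25 were tested, and their median log2 fold change was 0.57. Of these, 10 were called higher and 0 lower, beside 4.7% and 1.52% of all tested genes. At an unadjusted p under 0.05, limma gave 16 higher and 1 lower, beside 16.7% and 15.1% of all tested genes. The number called was 7 with a pseudocount of 1 FPKM and 12 with libraries scaled to their reads on genes, and 5 of the 10 had METTL3-Flox means under 0.1 FPKM and thus passed the minimum through METTL3-HKD livers. Cxcl2, a chemokine for neutrophils, was at 79.0, 22.6, 9.16 and 33.0 FPKM in METTL3-HKD livers and at 0.204, 0.628, 0.223 and 0.0601 FPKM in METTL3-Flox livers, with a log2 change of 6.38 (limma, adjusted p = 0.00190). From the highest, METTL3-HKD livers 1, 4, 2 and 3 had the same order for Cxcl2 as for Il1b. Sele, the endothelial selectin, had means of 2.34 and 0.0976 FPKM (log2 change 3.60, limma, adjusted p = 0.00224), and Ptgs2, the inducible cyclooxygenase, of 4.27 and 0.0171 FPKM (log2 change 4.89, limma, adjusted p = 0.00281). At these METTL3-Flox levels the fitted change depends on the pseudocount, and over the alternatives it was 1.56 to 4.61 for Sele and 2.16 to 7.67 for Ptgs2.
Csf3, the granulocyte growth factor, was listed at 0 in all METTL3-Flox livers and at 0.345 to 1.2 FPKM in METTL3-HKD livers (limma, adjusted p = 0.00389). The acute-phase gene Saa1, made by hepatocytes, did not pass and lay on the other side, with means of 2365 and 4190 FPKM and a log2 change of −0.74 (limma, adjusted p = 0.145). Nor did the chemokine gene Cxcl1, at means of 58.0 and 55.3 FPKM (log2 change 0.24, limma, adjusted p = 0.783), or Nfkbia, the NF-kB inhibitor (log2 change 0.37, limma, adjusted p = 0.106). Of the 25 tested genes, 19 had a log2 change above 0 and 6 under 0. Those 6 were Saa1, Saa2, Saa3, Lcn2, Orm2 and C3, and 0 of them passed on the adjusted p. These 6, Cxcl1 and Nfkbia were named after their values were seen.

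**Figure D4:**
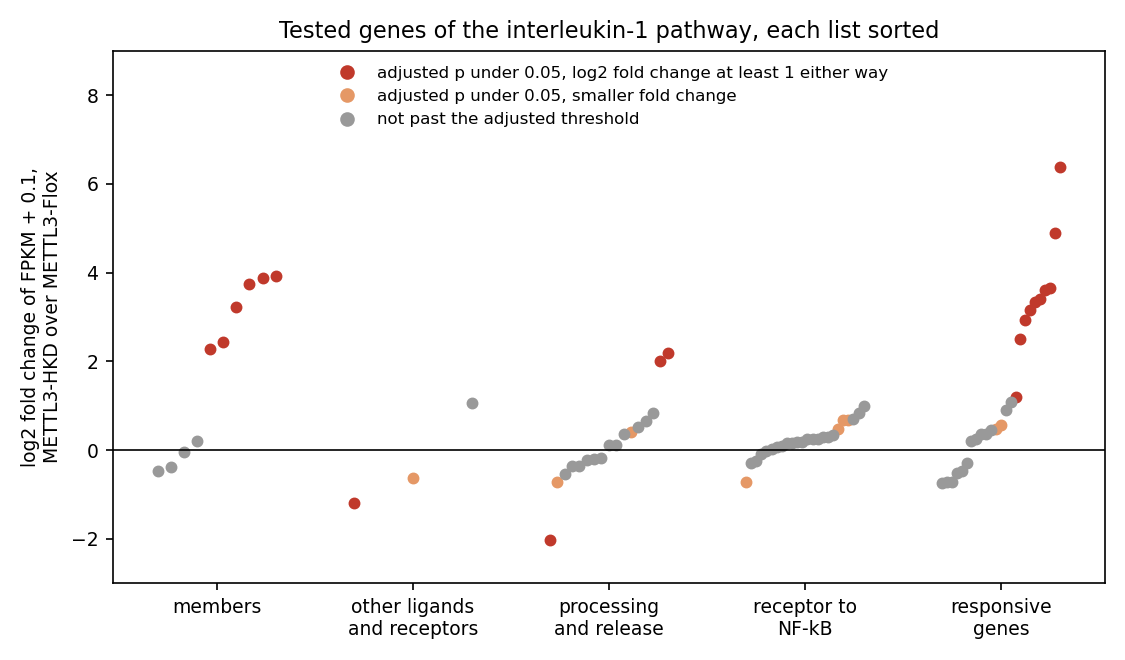
Log2 fold change of FPKM + 0.1, METTL3-HKD over METTL3-Flox, for each tested gene of the 5 lists, sorted within a list, with called genes in red, genes past the adjusted p alone in orange and the others in grey. Red points rise above 2 among the members, the processing genes and the responsive genes. The 24 genes between receptor and NF-kB hold no red point, where 4.7% of all tested genes were called higher and 1.52% lower.

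Several markers of neutrophils and monocytes were higher in METTL3-HKD livers, but not all of them. Of 16 neutrophil markers, 14 were tested, 11 were called higher and 0 lower, beside 4.7% and 1.52% of all tested genes. The same shares stand beside the counts of called genes of every marker list below. For counts on the adjusted p at any fold, the shares of all tested genes are 9.05% higher and 6.63% lower. For counts on the unadjusted p they are 16.7% and 15.1%. Of the 11, 1 (Ly6g) passed the minimum through METTL3-HKD livers and so had to differ. S100a9, a calcium-binding protein of neutrophils, was at 867, 223, 195 and 326 FPKM in METTL3-HKD livers and at 20.5, 14.5, 6.55 and 14.0 FPKM in METTL3-Flox livers, with a log2 change of 4.68 (limma, adjusted p = 0.00207). Its order over METTL3-HKD livers, 1, 4, 2 and 3, was that of Il1b, Il1f9 and Il18rap, whereas Il1rn, Il1r2 and Il33 had other orders. The summed level of the list was 1104 to 2404 FPKM in METTL3-HKD and 934 to 1853 FPKM in METTL3-Flox livers. That sum was dominated by Wfdc21, which was at means of 801 and 1251 FPKM and did not pass (log2 change −0.60, limma, adjusted p = 0.0910). Without Wfdc21, a list chosen after its values were seen, the sum was 342 to 1677 FPKM against 13.3 to 46.4 FPKM. The defining marker Ly6g, named after its values were seen, was listed at 0 in METTL3-Flox livers 2, 3 and 4, at 0.149 FPKM in METTL3-Flox liver 1, and at 0.235 to 3.38 FPKM in METTL3-HKD livers.
Of 10 markers of recruited monocytes, 5 were called higher and 0 lower, 1 of the 5 (Vcan) passing the minimum through METTL3-HKD livers alone, with a sum of 260 to 345 FPKM against 274 to 314 FPKM. Fn1, which hepatocytes also make, carried most of that sum with means of 232 and 273 FPKM (log2 change −0.25, limma, adjusted p = 0.245). Without Fn1, also left out after its values were seen, the sum was 35 to 126 FPKM against 12.8 to 25.4 FPKM. Chil3, a chitinase-like protein of myeloid cells, had means of 37.2 and 1.93 FPKM (log2 change 4.19, limma, adjusted p = 0.00389). The part that these cells play in the levels of Il1b, Il1rn, Il1r2, Il1f9, Il33 and Il18rap was not tested.

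Of 11 markers of Kupffer cells, the resident macrophages of the liver, 4 were called lower and 0 higher, with a summed level of 137 to 274 FPKM in METTL3-HKD and 269 to 656 FPKM in METTL3-Flox livers. When libraries were scaled to their reads on genes, 1 was called lower, and with a pseudocount of 1 FPKM 2 were. Cd5l, a protein these macrophages secrete, had means of 39.4 and 101 FPKM (log2 change −1.37, limma, adjusted p = 0.0302), and the complement gene C1qb had means of 43.4 and 81.5 FPKM and did not pass (log2 change −0.89, limma, adjusted p = 0.0705). Sinusoidal endothelial markers, of which 0 of 10 were called in limma (unadjusted p under 0.05 in 1 higher and 4 lower, and 3 lower on the adjusted p), summed to 70.9 to 82.2 FPKM against 83.8 to 96.8 FPKM. Their most abundant genes Clec4g (means 16.9 and 20.7 FPKM) and Lyve1 (means 14.5 and 13.1 FPKM) did not pass. Stellate cell markers gave 1 call higher and 1 lower of 10, with sums of 63.3 to 82.6 FPKM against 63.3 to 131 FPKM, and their leading genes Dcn (means 25.9 and 24.7 FPKM) and Ecm1 (means 19.2 and 26.3 FPKM) did not pass.
Of 8 bile duct markers 7 were tested and 6 were called higher, 2 of them passing the minimum through METTL3-HKD livers alone, and the list summed to 119 to 371 FPKM against 52.6 to 77.7 FPKM. Spp1, which encodes osteopontin, made up most of that sum with means of 208 and 60.3 FPKM (log2 change 1.68, limma, adjusted p = 0.0136), and Sox9 had means of 6.23 and 2.55 FPKM (log2 change 1.38, limma, adjusted p = 0.0305). With a pseudocount of 1 FPKM, 2 were called. Of 10 markers of stratified epithelium, where Il1f9 is best known, 6 were under the minimum, 3 were listed at 0 in every liver and 1 was called higher. That gene, Lor, had means of 10.4 and 0.489 FPKM (log2 change 3.79, limma, adjusted p = 0.00731), whereas Krt10 had means of 0.529 and 0.668 FPKM and did not pass. The list summed to 3 to 19.3 FPKM against 1.10 to 1.38 FPKM.
T and NK cell markers were low, with sums of 1.33 to 8.74 FPKM against 1.36 to 3.78 FPKM. Of the 7 tested in limma 0 were called and 0 had an unadjusted p under 0.05. By the mean over all 8 livers their leading genes were Gzmb (means 0.939 and 0.628 FPKM) and Nkg7 (means 0.8 and 0.65 FPKM). Of 12 hepatocyte markers 0 were called in limma, and 0 had an unadjusted p under 0.05, with sums of 29863 to 42890 FPKM against 38617 to 46407 FPKM. Their log2 fold change was under 0 in 11 and above 0 in 1. The median was −0.29, and −0.08 when libraries were scaled to their reads on genes. Apoa1, next to Alb by the mean over all 8 livers, had means of 4293 and 5948 FPKM and did not pass (log2 change −0.47, limma, adjusted p = 0.230).

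**Figure D5:**
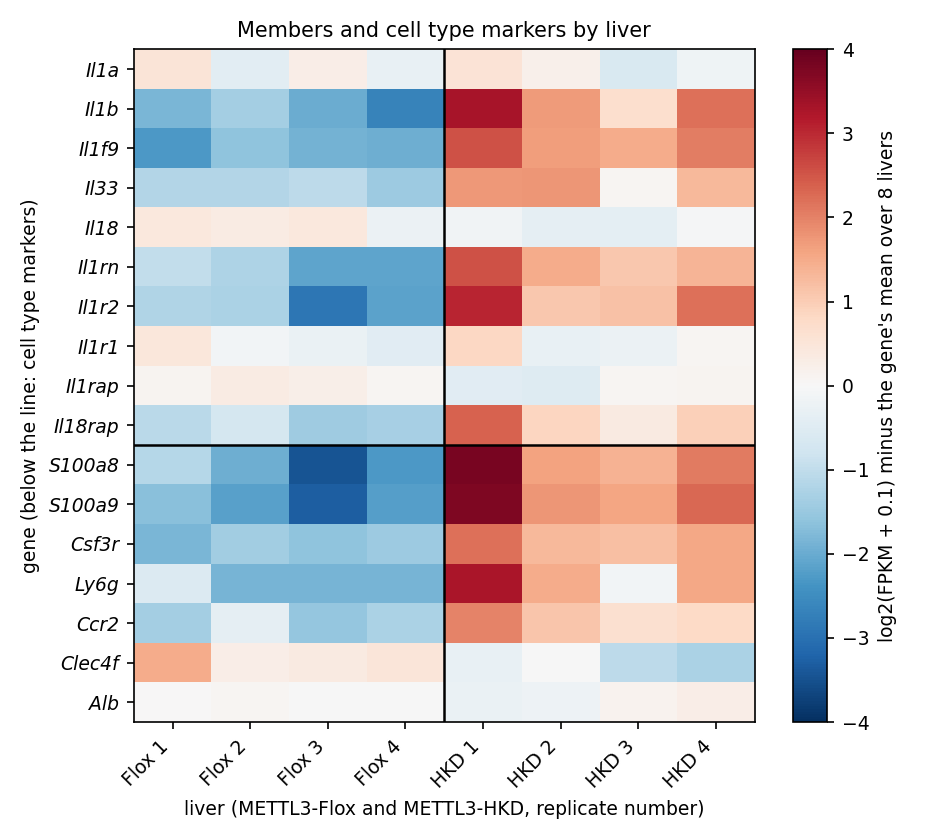
Log2(FPKM + 0.1) of each member and of 7 cell type markers, less the mean of the gene over the 8 livers, in METTL3-Flox livers 1 to 4 and METTL3-HKD livers 1 to 4. These 7 were picked from the marker lists. Neutrophil and monocyte markers that were not called, such as Wfdc21 (log2 change −0.60), Fn1 (−0.25), Camp (0.033) and Plac8 (0.067), are not shown. The 6 members that were called and the myeloid markers S100a8, S100a9, Csf3r, Ly6g and Ccr2 are darkest red in METTL3-HKD liver 1, with the exception of Il33, which was as high in liver 2, while Clec4f, a Kupffer cell marker, is highest in METTL3-Flox liver 1.

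The genes nearest in pattern were sought by the mean absolute difference, over the 8 livers, of log2(FPKM + 0.1) after the mean of each gene was taken off, among 12450 tested genes with at least 0.5 FPKM on average. The 5 nearest to Il1b were Olr1, the lectin-like receptor for oxidised LDL (0.223), Slc2a3, the glucose transporter GLUT3 (0.253), the immediate early gene Ier3 (0.284), the lipopolysaccharide co-receptor Cd14 (0.299) and the chemokine receptor Ccr1 (0.300). None of the other members was among them. Olr1 and Slc2a3 had METTL3-Flox means of 0.0263 and 0.0759 FPKM, under the pseudocount, which sets their fitted change and thus their distance. Olr1, Slc2a3 and Ccr1 (METTL3-Flox mean 0.446 FPKM) reached 0.5 FPKM through METTL3-HKD livers alone. Nearest to Il1r2 were Asprv1, an aspartic protease (0.286), the chemokine receptor Cxcr2 (0.289), the matrix protease Mmp9 (0.349), the antagonist Il1rn (0.366) and the lipid droplet protein Hilpda (0.372). Asprv1 and Cxcr2, with METTL3-Flox means of 0.212 and 0.328 FPKM, also reached 0.5 FPKM through METTL3-HKD livers alone. Cxcr2 and Mmp9 are on the list of neutrophil markers. Between members, the smallest distances were 0.241 for Il1rap and Il18, 0.312 for Il1a and Il1r1 and 0.336 for Il1a and Il18, all of them members that were not called. These distances describe 8 livers in 2 groups, and any gene that rose to a like extent is near.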

How the data were processed

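Livers of 4 METTL3-HKD and 4 METTL3-Flox mice after I/R were profiled by mRNA sequencing with a SMARTer kit, per the labels. The authors deposited FPKM for 54532 genes with the gene length behind each value. The submitters' processing notes name GRCm38 and mm10, and the aligner, counter and strand setting are not given in the sources used here. In each liver, 100% of the deposited FPKM above 0 came within 0.01 of a whole read once gene length and a fitted library size were multiplied in, and between-library scaling had been applied. For all 10 members the deposited length equals the exon bases in GENCODE M21, which holds 54409 of the listed genes, 98.3% of them with the same coordinates.

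Groups follow the sample labels, and nothing was left out. The labels name 1 mouse for each sample, and no batch. FPKM were compared with limma 3.58.1 in R 4.3.3 (log2 after a pseudocount of 0.1 FPKM, mean-variance trend, two-sided, Benjamini-Hochberg adjustment over the 16645 genes that averaged 0.1 FPKM or more). The study's thresholds were used (0.05 for the adjusted p, 1 for the log2 fold change). The 5 ratios and single members were compared by exact permutation over 70 arrangements. On simulated data of 15616 genes, the method called 183 of 190 changed genes and 11 unchanged genes. That simulation had less spread between livers than Il1b shows here. It also left out genes with METTL3-Flox means under 0.1 FPKM, such as Il18rap. Read depth limits the values of Il1f9 and Il18rap in METTL3-Flox livers, and read counts cover counting error only.

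Named genes were the 10 members, Mettl3, the called genes of each pathway list (up to 4 in each direction, by adjusted p), the 2 genes of each marker list with the highest mean over the 8 livers and the 5 genes nearest to Il1b and to Il1r2. Other genes, among them those past the adjusted p alone, Il18r1, Ly6g and Vcan, were named after their values were seen. The members and lists were chosen with earlier results of these data known. Alternatives were no minimum, a minimum mean or a pseudocount of 1 FPKM, no trend, array weights, scaling to reads on genes, voom on rebuilt reads, a replicate block and leaving out each of the 8 livers. Promoter sequences came from RefSeq on GRCm38.p6, in which all 10 members matched by symbol. Figures were drawn with Python 3.11.15 and matplotlib 3.10.9.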

Additional observations from a re-analysis of the deposited data

Results flagged for a closer look

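The log2 ratio of Il1rap to Il1r1 in METTL3-Flox liver 1 was −1.99, apart from the other METTL3-Flox livers, which lay between −1.19 and −1.09. The gap to the nearest of them made up 0.891 of the range of the group, above Dixon's critical value for 4 samples at the 95% level. That liver held the highest Il1r1 of its group (37.0 FPKM). In all, 30 groups of 4 livers were examined in this way, and the criterion lets through about 5% of groups by chance.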

How the results depend on the processing

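Over 16 alternatives, 6 members were called higher, except with a pseudocount of 1 FPKM or a minimum mean of 1 FPKM (5 each, without Il18rap), and 0 were called lower. The number of members lower on the adjusted p was 0 to 1 with single livers left out, the 1 being Il18 without METTL3-Flox liver 4. Il1a changed sign, to 0.18 when scaled to reads on genes and, with single livers left out, to values between −0.22 and 0.17 (0.17 without METTL3-HKD liver 3, 0.024 without METTL3-HKD liver 4, 0.14 without METTL3-Flox liver 1 and 0.049 without METTL3-Flox liver 3). With single livers left out Il1r1 was at −0.050 to 0.38, with −0.050 without METTL3-HKD liver 1. Neither Il1a nor Il1r1 passed under any alternative. Single omissions left the log2 changes of Il1b at 3.48 to 4.36, Il1rn at 2.92 to 3.44, Il1r2 at 3.36 to 4.02, Il1f9 at 3.68 to 4.03, Il33 at 2.25 to 2.81 and Il18rap at 1.86 to 2.53, all called. A pseudocount of 1 FPKM gave 3.39, 2.53, 2.50, 2.13, 1.89 and 0.63 in the same order. For these 6 the adjusted p from limma over all alternatives that tested them was at most 0.0486, for Il18rap. The cause of the changes was not tested.

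The labels do not say whether shared replicate numbers pair the mice. Deviations of same-numbered livers correlated at −0.08 to 0.07 over genes, and 1 of 4 METTL3-HKD livers correlated best with its own number. With 4 livers in each group this cannot exclude pairing. With the replicate block, 6 members were called higher, and the differences for Il1rn to Il1a, Il1r2 to Il1r1 and Il1b to Il18 stayed at 3.26, 3.56 and 4.4, where the exact sign-flip test of 4 pairs cannot go below p = 0.125, the value it gave. Over all genes, 782 were called higher and 253 lower. These counts were 616 and 200 with the block, 317 and 88 with a pseudocount of 1 FPKM, 450 and 183 with a minimum mean of 1 FPKM, 487 and 112 without METTL3-HKD liver 1, 574 and 145, 510 and 94 and 549 and 157 without METTL3-Flox liver 2, 3 or 4, 685 and 163 with no minimum, and 1038 and 133 when scaled to the reads on genes, which shifted the median over all genes to 0.19 on the log2 scale.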
